A study of Rattus norvegicus with 11 samples.

Results

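MHC class I molecules carry peptides from inside the cell to its surface, where cytotoxic T cells read them. The peptides are cut by the proteasome, whose immunoproteasome form holds the inducible catalytic subunits Psmb8 (LMP7), Psmb9 (LMP2) and Psmb10 (MECL-1). They are then moved into the endoplasmic reticulum by the transporter TAP, trimmed by aminopeptidases, and loaded onto a heavy chain paired with B2m with the help of chaperones. Interferons are the best-known inducers of these genes, and in the healthy brain class I presentation is kept low. The genes described here are the partners of Psmb8 and Psmb9 along this route, namely the catalytic subunit Psmb10, the PA28 activator subunits Psme1 and Psme2, the transporter subunits Tap1 and Tap2, the loading factors Tapbp (tapasin) and Pdia3 (ERp57), the light chain B2m, the peptide trimming enzyme Erap1, and Nlrc5, the transactivator of class I genes. Psmb8 and Psmb9 themselves were kept as references.

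The 10 members were chosen by gene symbol. A row with the symbol was found for 9 of them among the 30560 genes of the count table, Psmb10 was not analysed here, and 8 passed the filter on low counts. The ninth, Tapbp, held 2 counts in IC replicate 2, 2 in IS replicate 3, 1 each in IS-HA replicates 1 and 3, and 0 in the other 7 rats, all at or below the floor of 3 counts. Whether its reads were assigned to another gene model or lost to multiple mapping was not tested, so these counts may not show its level. That level could therefore not be compared between groups, and it counts among neither the genes that rose nor those that did not.

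RNA of the striatum was sequenced at day 3 in 11 adult male Sprague-Dawley rats, with 1 library per rat. IC rats (common hemorrhage, n = 3) had 0.2 U of the bacterial enzyme collagenase VII-S in 1.0 μL of saline placed in the right striatum, and IS rats (severe hemorrhage, n = 3) had 0.6 U in 3.0 μL. IS-HA rats (n = 3) received the IS dose and, 6 h later, a second anesthesia and catheter aspiration of 150 μL, about 75% of the hematoma. Normal rats (n = 2) had neither collagenase nor aspiration, so injection of saline alone and passage of a catheter alone have no control, and dose and injected volume changed together between IC and IS. Counts assigned to genes ran from 6701301 in IS-HA replicate 2 to 18817645 in IC replicate 3. The markers of striatal projection neurons were present in every rat, with Ppp1r1b at 3919 counts or more. IS-HA replicate 2 stood apart from the others: besides the smallest library, it had the lowest quality weight in voom (0.155) and the largest deviation from its group mean (root mean square 0.661 on the log2 scale, against 0.240 to 0.446 in the other rats), so the members' results of IS-HA are given with and without it.

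The sequence before the start site is shown for the members whose promoter holds a short motif tied to interferon induction. RefSeq promoter windows (GRCr8, 250 bases before the start of the gene to 50 after) were found for 7 of the 10 members, and not for Erap1, Nlrc5 or Pdia3. The letters GAAANNGAA, a shortened form of the interferon-stimulated response element searched on both strands, occurred in 6 of these 7 windows, against 9.71% of all 33469 windows of the table. The stretches below run 5′ to 3′ on the strand of the gene, and capitals mark the match, which in Tap1 lies on the opposite strand.
Psmb10, chr19:50743293-50743390, minus strand: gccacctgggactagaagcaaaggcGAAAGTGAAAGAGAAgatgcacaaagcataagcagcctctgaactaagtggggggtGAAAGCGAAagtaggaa
Psme2, chr15:33052771-33052829, minus strand: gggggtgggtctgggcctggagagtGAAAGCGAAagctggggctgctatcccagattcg
Tap1, chr20:4668630-4668688, minus strand: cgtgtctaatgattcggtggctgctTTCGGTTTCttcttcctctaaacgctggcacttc
Tap2, chr20:4652304-4652362, minus strand: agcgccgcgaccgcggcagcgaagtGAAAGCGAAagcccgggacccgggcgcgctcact
Tapbp, chr20:4967878-4967928, minus strand: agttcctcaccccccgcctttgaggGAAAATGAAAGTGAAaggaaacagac
B2m, chr3:129549155-129549213, plus strand: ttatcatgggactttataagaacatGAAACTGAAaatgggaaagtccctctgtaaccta

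Psmb10 held 3 matches, of which the first 2 overlapped, and Tapbp held 2 that overlapped. In Psme2 and Tap2 the match began 53 and 41 bases before the start, in Tap1 120 and in B2m 150. Psme1, the partner of Psme2, was the 1 member of the 7 without a match. The NF-kB site was found in Tap1, Tapbp and B2m, 3 of the 7, against 4.18% of all windows. A gamma-activated site written as TTCNNNGAA was found in 0 of the 7 (8.87% of all windows) and CCAAT in 1, B2m (37.5%). None of the matches in these members overlapped a match of another motif. Tap1 and the reference Psmb9 are neighbours on opposite strands, with starts 457 bases apart, so their windows share 44 bases. A match of letters is a description of the window and says nothing of whether a factor binds there.

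The first question was whether the class I partners differed from uninjured striatum in each hemorrhage model. All 8 tested members rose in IC, in IS and in IS-HA against Normal (edgeR's quasi-likelihood test, adjusted p under 0.05). Of all 15742 genes tested, 13.0% were called higher in IC, 24.8% in IS and 19.5% in IS-HA. The median log2 fold change of the 8 was 1.63 in IC, 2.11 in IS and 1.85 in IS-HA, against medians of 0.0033, 0.018 and 0.056 over all genes. In TPM every rat of every hemorrhage group was above both Normal rats for each of the 8 genes, which in the whole set held for 34.6% of genes in IC, 37.2% in IS and 33.3% in IS-HA. The 3 comparisons share the same 2 Normal rats and are given side by side for that reason.

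**Figure D1:**
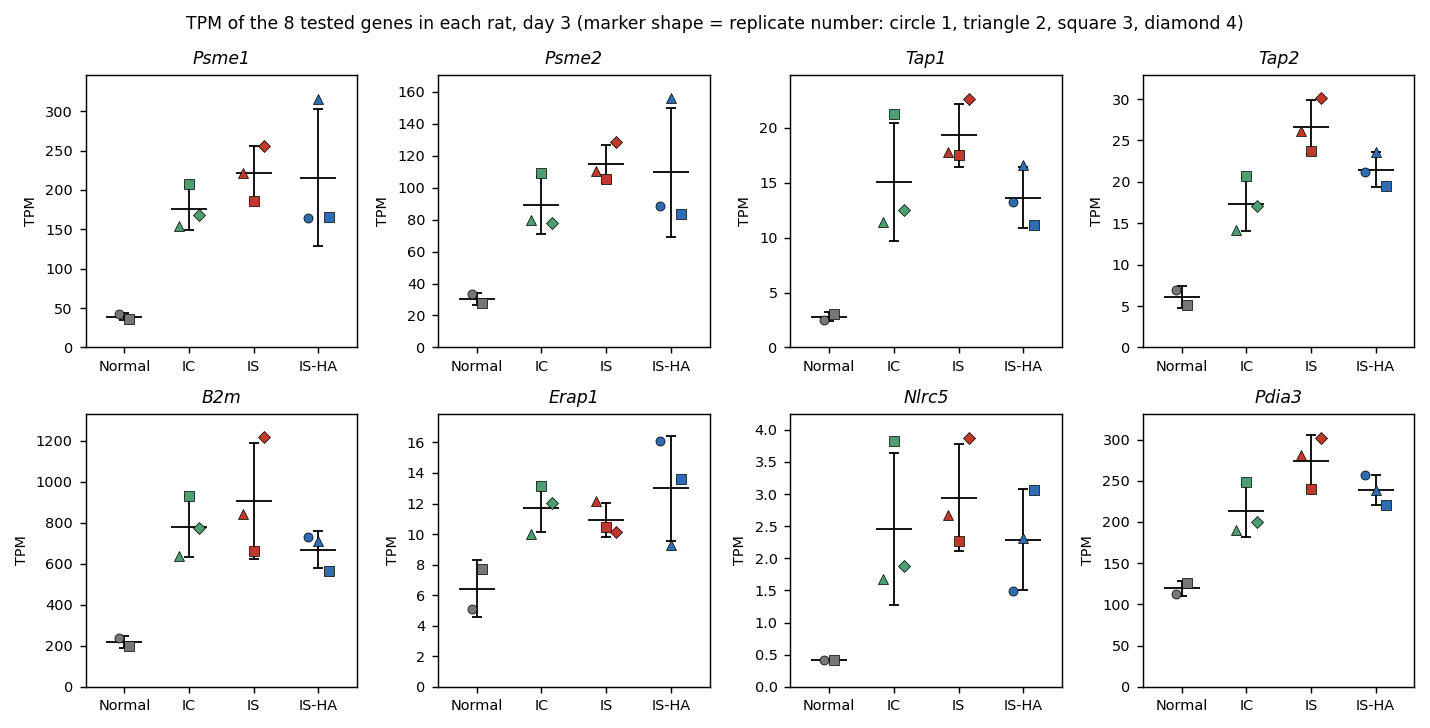
TPM (vertical axes, from 0) of the 8 tested genes in each rat, by group; points are rats, the marker shape gives the replicate number, and horizontal lines with bars give the mean ± SD. The Normal rats are lowest in every panel, IC replicate 3 is the highest IC rat in all 8 panels, and IS-HA replicate 2 is far above the other IS-HA rats for Psme1 and Psme2.

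Of the PA28 activator, the ring that caps the proteasome core and eases release of peptides, Psme1 stood at 42.3 and 35.7 TPM in Normal. It was at 154, 208 and 168 TPM in IC replicates 2, 3 and 4, at 222, 186 and 256 in IS replicates 2, 3 and 4, and at 165, 316 and 166 in IS-HA replicates 1, 2 and 3. No hemorrhage rat came near the Normal values, and IS-HA replicate 2 was far above the other IS-HA rats. The log2 fold change of Psme1 against Normal by edgeR was 2.11 ± 0.40 (SE) in IC, 2.52 ± 0.41 in IS and 2.52 ± 0.41 in IS-HA, with adjusted p-values of 0.0046, 0.00078 and 0.00142. Psme2, the other subunit of the same ring, was at 33.1 and 27.9 TPM in Normal and between 77.9 and 156 in the hemorrhage rats. Its log2 fold change by edgeR was 1.47 ± 0.37 in IC, 1.92 ± 0.37 in IS and 1.88 ± 0.37 in IS-HA (adjusted p 0.0197, 0.00211 and 0.00428). A pseudogene copy, Psme1-ps1, is listed as a gene of its own with at most 61 counts in a rat, and adding its counts to those of Psme1 moved the log2 fold change to 2.08, 2.51 and 2.48.

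The transporter subunits, which together form the peptide pump of the endoplasmic reticulum, both rose. Tap1 was at 2.52 and 3.07 TPM in Normal, at 11.4, 21.3 and 12.5 in IC, at 17.8, 17.5 and 22.7 in IS and at 13.2, 16.6 and 11.1 in IS-HA. IC replicate 3 was set apart from the other IC rats and reached the IS range. The log2 fold change of Tap1 by edgeR was 2.37 ± 0.37 in IC, 2.81 ± 0.37 in IS and 2.31 ± 0.37 in IS-HA (adjusted p 0.00143, 0.00027 and 0.00131). Tap2 was at 7.0 and 5.13 TPM in Normal, at 14.2, 20.6 and 17.0 in IC, at 26.2, 23.7 and 30.1 in IS and at 21.2, 23.7 and 19.5 in IS-HA. For this gene all IS rats were above all IC rats. Its log2 fold change by edgeR was 1.45 ± 0.29 in IC, 2.14 ± 0.30 in IS and 1.82 ± 0.29 in IS-HA (adjusted p 0.00644, 0.000348 and 0.00143).

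In the loading complex, B2m, the invariant light chain of class I, was the most abundant member in every group. It was at 238 and 197 TPM in Normal, at 635, 931 and 774 in IC, at 845, 661 and 1217 in IS and at 733, 710.1 and 564 in IS-HA. The IC, IS and IS-HA ranges overlapped one another. The log2 fold change of B2m by edgeR was 1.78 ± 0.34 in IC, 2.08 ± 0.34 in IS and 1.62 ± 0.33 in IS-HA (adjusted p 0.00468, 0.00085 and 0.00518). Pdia3, an oxidoreductase that serves glycoprotein folding in general as well as class I loading, was at 113 and 126 TPM in Normal and between 191 and 302 in the hemorrhage rats. Its log2 fold change by edgeR was 0.78 ± 0.21 in IC, 1.22 ± 0.21 in IS and 1.00 ± 0.21 in IS-HA (adjusted p 0.0262, 0.00113 and 0.00556).

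Erap1, which trims the amino end of peptides in the endoplasmic reticulum, was at 5.09 and 7.73 TPM in Normal and between 9.27 and 16.1 in the hemorrhage rats. Its log2 fold change by edgeR was 0.83 ± 0.21 in IC, 0.79 ± 0.21 in IS and 0.99 ± 0.22 in IS-HA (adjusted p 0.0232, 0.0114 and 0.00671), and among the 8 members it had the smallest estimate in IS and in IS-HA. Nlrc5, which acts on the promoters of class I heavy chain, B2m and transporter genes, had the lowest level of the tested members. It was at 0.424 and 0.415 TPM in Normal (23 and 22 counts), at 1.67, 3.82 and 1.87 in IC, at 2.67, 2.27 and 3.87 in IS and at 1.5, 2.32 and 3.06 in IS-HA. The ranges of the 3 hemorrhage groups overlapped. Its log2 fold change by edgeR was 2.48 ± 0.48 in IC, 2.82 ± 0.49 in IS and 2.43 ± 0.49 in IS-HA (adjusted p 0.00557, 0.00115 and 0.00448).

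**Figure D2:**
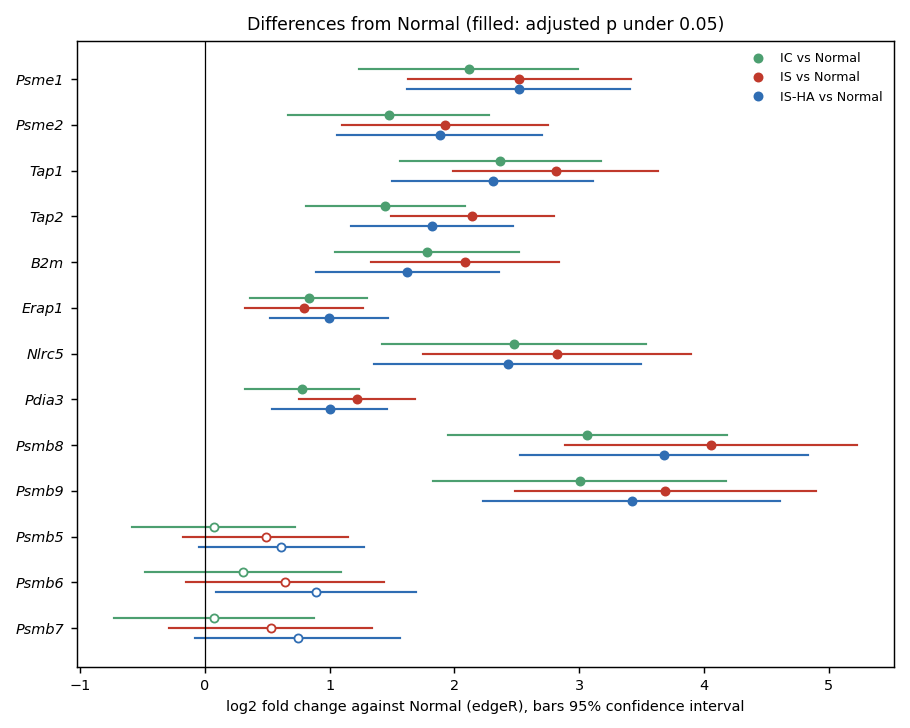
Log2 fold change against Normal (horizontal axis, edgeR) of the 8 tested members, the references Psmb8 and Psmb9, and the constitutive subunits Psmb5, Psmb6 and Psmb7; points are estimates, bars 95% confidence intervals, and filled points passed an adjusted p of 0.05. All points of the members are filled and right of 0, whereas those of the constitutive subunits are open.

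The count of members called moved with single rats, as did that of all genes. Without Normal replicate 3, Tap1 alone of the 8 was called in IC, while the genes called in either direction went from 2770 to 834, and 4 of the 8 were called in IS-HA, while those of all genes went from 4965 to 1580. The IC count was 5 without Normal replicate 1 (1286 genes in all) and 5 without IC replicate 3 (1434 genes), and every log2 fold change stayed above 0. Without IS-HA replicate 2, all 8 members were still called in IS-HA against Normal, with 4489 genes in all. Their log2 fold changes by edgeR were then 1.94 for Psme1, 1.35 for Psme2, 1.99 for Tap1, 1.60 for Tap2, 1.43 for B2m, 1.09 for Erap1, 2.28 for Nlrc5 and 0.87 for Pdia3, all below the values with that rat other than that of Erap1. Between IS-HA and IC, the estimates without it ran from -0.38 (Tap1) to 0.26 (Erap1), none of which passed.

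The references had larger point estimates than any member in all 3 comparisons, a difference that was not tested. Psmb8 had log2 fold changes of 3.06 ± 0.51, 4.06 ± 0.53 and 3.68 ± 0.52 in IC, IS and IS-HA by edgeR, and Psmb9 3.00 ± 0.53, 3.69 ± 0.55 and 3.42 ± 0.54. IS-HA replicate 2 had the highest TPM of its group for both (156 for Psmb8 and 28.4 for Psmb9), and without it the IS-HA log2 fold changes were 3.00 for Psmb8 and 2.76 for Psmb9. The subunits they replace, Psmb5 for Psmb8, Psmb6 for Psmb9 and Psmb7 for Psmb10, did not pass the test in any comparison, with log2 fold changes against Normal from 0.07 (Psmb5 in IC, 95% interval -0.58 to 0.73) to 0.89 (Psmb6 in IS-HA, 0.09 to 1.69).

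Levels per length, in TPM, put the members in a different order with and without hemorrhage. In Normal the means ran from B2m (217 ± 29.5, SD, n = 2) through Pdia3 (119.5 ± 9.0), Psme1 (39.0 ± 4.61), Psme2 (30.5 ± 3.69), Erap1 (6.41 ± 1.87), Tap2 (6.06 ± 1.32) and Tap1 (2.80 ± 0.391) to Nlrc5 (0.419 ± 0.00661). Erap1 and Tap2 overlapped there, and the other neighbours did not. In IS the order was B2m (907 ± 283, n = 3), Pdia3 (274 ± 31.4), Psme1 (221 ± 34.8), Psme2 (115 ± 12.0), Tap2 (26.7 ± 3.25), Tap1 (19.3 ± 2.90), Erap1 (10.9 ± 1.10) and Nlrc5 (2.94 ± 0.832). Erap1, above both transporter subunits or level with Tap2 in Normal, was thus below all values of both in IS. The means of IC and IS-HA had the same order as those of IS, but Erap1 overlapped Tap1 in both. Erap1 ran from 9.98 to 13.2 TPM and Tap1 from 11.4 to 21.3 in IC. In IS-HA the ranges were 9.27 to 16.1 and 11.1 to 16.6. Pdia3 and Psme1 overlapped in IC, IS and IS-HA, and Tap1 and Tap2 overlapped in IC. The remaining neighbours did not overlap in these groups.

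The balance within each pair of subunits was read from TPM ratios in each rat, with the 9 hemorrhage rats as one set against the 2 Normal rats. Psme1 to Psme2 was 1.27 and 1.28 in the Normal rats. It lay between 1.76 and 2.15 in all 9 hemorrhage rats, with a median of 1.99, so the ranges did not meet. The ratio was 1.53-fold higher on average with hemorrhage (0.61 on the log2 scale, two-sided exact permutation p = 0.0364, adjusted p = 0.0485 over the 4 ratios). This is the smallest p that 9 against 2 rats can give. It passes after adjustment only because the 2 ratios of the references Psmb8 and Psmb9 reached it too. Group means of the ratio were 2.00 ± 0.138 in IC, 1.92 ± 0.137 in IS and 1.96 ± 0.0853 in IS-HA (SD, n = 3 each), with no more between groups than within them. IS-HA replicate 2, high for both genes, had a ratio of 2.02 like its neighbours.

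Tap1 to Tap2 was 0.360 and 0.599 in Normal and 0.573 to 1.03 with hemorrhage, and 8 of 9 rats were above both Normal rats. The difference of 0.65 on the log2 scale missed the threshold (exact permutation p = 0.0727, adjusted p = 0.0727). For the references, Psmb8 to Psmb5 was 0.0539 and 0.0489 in Normal and 0.316 to 0.807 with hemorrhage, 9.04-fold higher on average, and Psmb9 to Psmb6 was 0.0109 and 0.0101 in Normal and 0.0459 to 0.11 with hemorrhage, 6.72-fold higher (exact permutation p = 0.0364 and adjusted p = 0.0485 for each). The ratio of Psmb10 to Psmb7 was not analysed here. With 1 hemorrhage rat left out, 0.0444 is the smallest p that the exact permutation test can give. It passes after adjustment only if all 4 ratios reach it. Without IS-HA replicate 3 all 4 did, so Tap1 to Tap2 passed as well (0.69, adjusted p = 0.0444). With any other hemorrhage rat left out fewer reached it and none passed, which does not show a smaller difference. With 1 Normal rat left, no ratio could pass. Over all rats left out in turn, the log2 differences of the 3 ratios that had passed in the full set stayed within 0.60 to 0.63, 3.08 to 3.25 and 2.67 to 2.83.

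**Figure D3:**
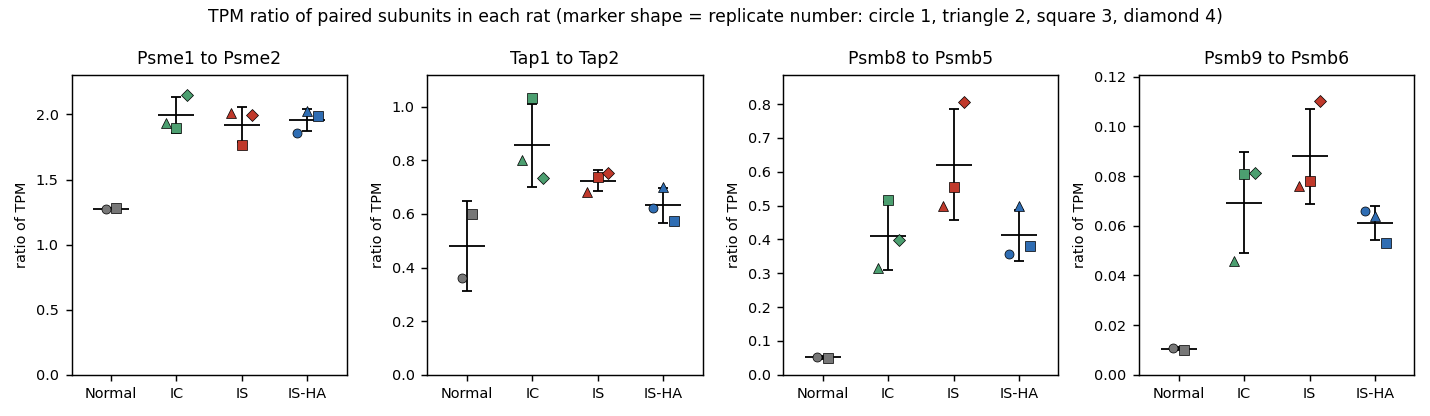
Ratio of TPM within each rat (vertical axes, from 0) for Psme1 to Psme2, Tap1 to Tap2, Psmb8 to Psmb5 and Psmb9 to Psmb6; points are rats by replicate number, lines with bars the mean ± SD of the group. Psme1 to Psme2 is level at about 2 in all 3 hemorrhage groups, above 1.27 and 1.28 in Normal.

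The second question was whether the larger hemorrhage had higher levels than the smaller one. Of the 8 members, 0 were called between IS and IC by edgeR or by DESeq2. Over all genes edgeR called 0% and 3498 genes reached an unadjusted p under 0.05, while DESeq2 called 977. Of the members, 2 reached an unadjusted p under 0.05, Tap2 and Pdia3. The median log2 fold change of the 8 was 0.42 against -0.0010 over all genes, and 7 of 8 were above 0. Tap2 had the largest, 0.70 ± 0.24 (95% interval 0.16 to 1.24, adjusted p 0.169 by edgeR), and Erap1 was at -0.04 (-0.45 to 0.37). Tap2 was also the 1 member for which all IS rats were above all IC rats in TPM, an ordering found in 15.4% of genes; in TMM-scaled CPM, 3 of 8 had it (Psme2, Tap2 and Pdia3) against 19.2% of genes. Tap2 was called without IS-HA replicate 2 in the fit (adjusted p 0.0461 by edgeR) and by voom with quality weights (0.0438). Without that rat 2241 of all genes were called, against 0 with it. The adjusted p of Tap2 ran from 0.0438 to 0.518 over the alternatives.

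IC replicate 3 took part in the overlap. It was the highest IC rat for 8 of 8 members in TPM and lay below all IS rats for 1 member only, whereas IC replicates 2 and 4 lay below all IS rats for 8 and 6. In TMM-scaled CPM it was the highest IC rat for 7 members and lay below all IS rats for 3. In IS, replicate 4 was highest for 7 of 8, with Erap1 as the exception. For these counts of single rats, the shares of all genes were not computed.

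The third question was whether aspiration was followed by lower levels. Between IS-HA and IS, 0 of 8 members were called by edgeR or DESeq2, where edgeR called 0.00635% of all genes (1 gene), DESeq2 called 71 genes and 1408 genes had an unadjusted p under 0.05; 0 members did. The median log2 fold change was -0.27, against 0.045 over all genes. Tap1 (-0.51 ± 0.29, 95% interval -1.15 to 0.14) and B2m (-0.46 ± 0.28, -1.08 to 0.16) had the lowest estimates, Nlrc5 was at -0.40, Tap2 at -0.33 and Pdia3 at -0.22. Psme1 and Psme2 were at -0.003 (-0.72 to 0.72) and -0.04 (-0.72 to 0.64), and Erap1 at 0.20 (-0.21 to 0.62). The intervals still hold changes of more than 1.5-fold either way for the PA28 subunits.

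Rats of the aspirated group were not alike. In TPM, IS-HA replicate 1 was below all IS rats for 5 of 8 members and replicate 3 for 6, and each was above them for 1, Erap1. Replicate 2 was below for 4 and above all IS rats for 2, Psme1 and Psme2. In TMM-scaled CPM, replicates 1, 2 and 3 were below for 7, 0 and 6 members. The matching shares of all genes were not computed for these counts of single rats. Tap1 and Tap2 were below all IS values in all 3 IS-HA rats in TPM, an order seen in 6.37% of genes, although for Tap2 the highest IS-HA and the lowest IS value were both 23.7 when rounded. In TMM-scaled CPM 0 of 8 members had it, against 5.42% of genes. Without IS-HA replicate 2 the log2 fold change from IS was -0.58 for Psme1, -0.57 for Psme2, -0.82 for Tap1, -0.54 for Tap2, -0.65 for B2m, -0.54 for Nlrc5, -0.35 for Pdia3 and 0.30 for Erap1. The count of members called by edgeR was still 0, with adjusted p-values from 0.0809 to 0.396, while 695 genes were called in all. The Psme1 and Psme2 estimates near 0 thus came with 1 rat, and Erap1 was above 0 with and without it.

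Between IS-HA and IC, 0 of 8 were called by edgeR or DESeq2 (0% of all genes by edgeR, 20 genes by DESeq2, 782 genes at an unadjusted p under 0.05 and 0 members among them). The median log2 fold change was 0.19, against 0.032 over all genes, with 5 of 8 above 0. The 3 comparisons among hemorrhage groups share rats in pairs.

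**Figure D4:**
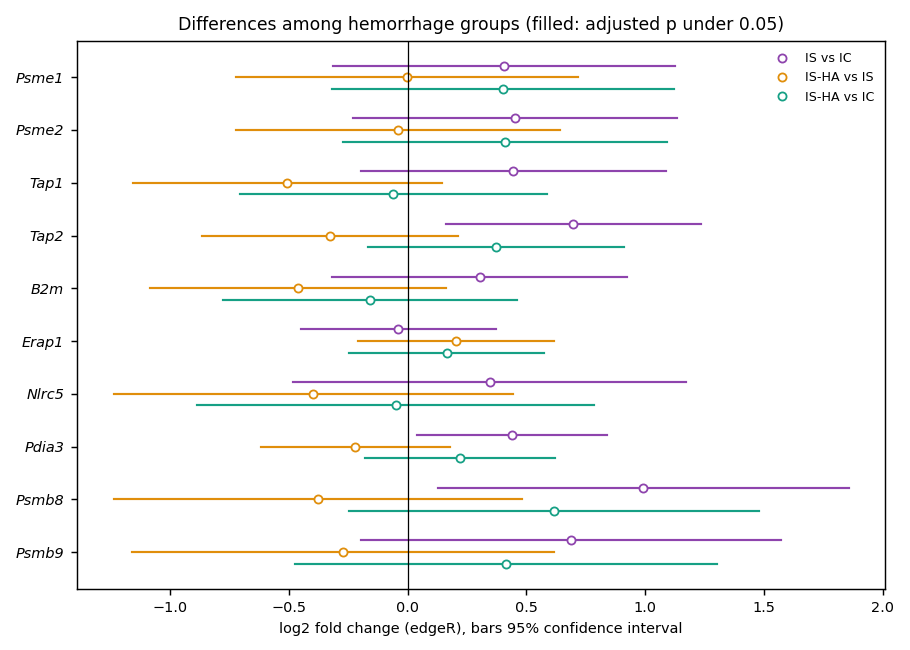
Log2 fold change (horizontal axis, edgeR) of the 8 tested members and the references Psmb8 and Psmb9 between hemorrhage groups; points are estimates, bars 95% confidence intervals. All points are open, that is, above an adjusted p of 0.05, and for the members all intervals include 0 other than those of Tap2 and Pdia3 in IS against IC.

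The rest of the pathway was read from lists of genes. Among 16 tested genes of other antigen processing steps, 2 rose in IC, 10 in IS and 7 in IS-HA against Normal, with 0 lower, and medians of 0.27, 0.75 and 0.62 (log2). Of all genes 13.0%, 24.8% and 19.5% were called higher, so the IC count of this list was near that share. Sec61a1 and Sec61b, subunits of the channel of the endoplasmic reticulum membrane, had log2 fold changes of 1.81 and 1.72 in IS by edgeR (adjusted p 0.002 and 0.0039). Pomp, the chaperone of proteasome assembly, was at 1.14 (adjusted p 0.038), and the lectin chaperone Calr at 1.07 (adjusted p 0.0073). The list of the constitutive 20S core had 0, 4 and 3 of 14 genes higher, where 13.0%, 24.8% and 19.5% of all genes were. Within this list only Psmb5, Psmb6 and Psmb7 are replaced by inducible subunits, and these were not among the genes called. Psmb4 (1.15 in IS, adjusted p 0.03 by edgeR) and Psma4 (0.68, adjusted p 0.026) passed, whereas Psmb1 (0.76) and Psma7 (0.70) did not. The 19S regulator, which feeds ubiquitin-tagged proteins to the core, had 0, 4 and 3 of 18 higher, and 1 lower in IS, Psmd1 (-0.67, adjusted p 0.013). Psmd8, Psmc4 and Psmd13 were at 0.99, 0.81 and 0.76 in IS (adjusted p 0.024, 0.018 and 0.02).

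Class I heavy chains, the partners of B2m, are near-identical copies in the rat, and counts of single genes are uncertain because reads can be split among them. Of 23 listed, 14 were tested, and 6, 5 and 7 rose in IC, IS and IS-HA. RT1-T24-3 was at 2.68, RT1-N3 at 2.41 and RT1-CE11 at 2.25 in IS (log2, adjusted p 0.00037, 0.0013 and 0.0014 by edgeR), and RT1-CE2 was at 2.58 without passing (adjusted p 0.08). Class II genes, which serve presentation of material taken up from outside, rose in 7, 8 and 8 of 8, with medians of 3.81, 5.45 and 4.71. RT1-Da (6.29 in IS), the class II transactivator Ciita (6.03), the invariant chain Cd74 (5.55) and RT1-Bb (5.49) led them. The members' medians of 1.63, 2.11 and 1.85 lay between those of the constitutive proteasome (0.29, 0.52 and 0.63) and class II.

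Of the genes that carry or regulate the interferon response, 17 of 21 were tested, and 8, 13 and 9 rose in IC, IS and IS-HA. Irf8, a factor of myeloid cells, was at 3.09 in IS, the interferon-gamma receptor chain Ifngr1 at 2.94, Irf1, an activator of class I and immunoproteasome genes, at 2.18, and the feedback inhibitor Socs1 at 2.18 (log2, adjusted p 5.8e-05, 6.7e-05, 0.0005 and 0.005 by edgeR). The transcripts of the inducers themselves, Ifng and Ifnb1, held at most 1 count in any rat, below the floor of 3 counts, so they were not detectable at this depth. Between hemorrhage groups 0 genes of any of these lists were called. The list counts against Normal moved with single rats: without Normal replicate 3 the other antigen processing genes called in IS were 2 and the constitutive core 0, while the genes called in all went from 7710 to 3960. Without IS-HA replicate 2, 11 genes of the core were called in IS, with 9453 genes in all. In IS-HA that rat's absence left 6 of the other antigen processing genes, 1 of the core, 4 class I heavy chains and 8 interferon and regulator genes called, and the 19S regulator and class II counts at 3 and 8.

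**Figure D5:**
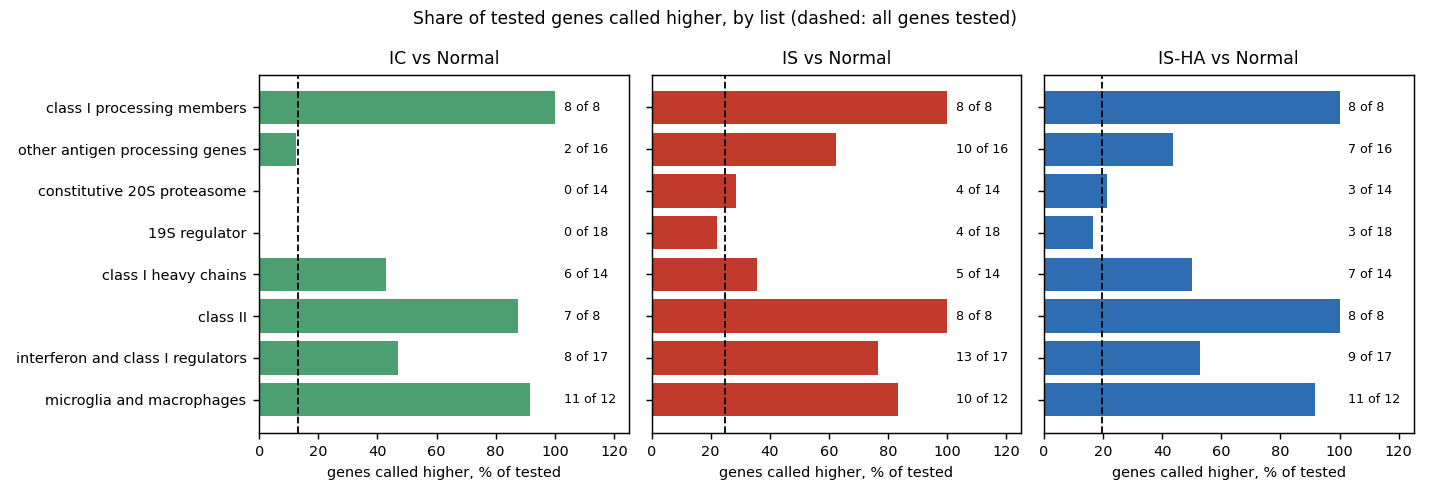
Percent of tested genes called higher against Normal (horizontal axis) for the members and other lists of genes, in IC, IS and IS-HA; bars are shares, the count stands at the right, and the dashed line is the share among all 15742 genes (13.0%, 24.8% and 19.5%). The members, class II and the microglia and macrophage markers are far right of the line, and the 19S regulator is left of it in all 3 panels.

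Markers of several cell types, but not of all, moved with these genes. Of 12 microglia and macrophage markers, 11, 10 and 11 rose in IC, IS and IS-HA, and their mean log2 difference from Normal was 2.91 ± 0.177, 3.28 ± 0.261 and 3.08 ± 0.201 (SD, n = 3), with summed levels of 334 to 469 CPM in Normal, 1919 to 2568 in IC, 2860 to 3886 in IS and 2335 to 3899 in IS-HA. All 6 tested neutrophil markers of 8 rose in each group, with summed levels of 5.23 to 5.79 CPM in Normal and 138 to 425 in the hemorrhage rats, and Mpo and Fpr1 held at most 3 counts. Of 7 tested T and NK cell markers 2, 4 and 3 rose. In this list Cd8a was at 1 to 2 counts in Normal and 351 to 2213 with hemorrhage. Cd3e was at 11 to 14 and 3 to 20, all in counts not scaled for depth. Neuron markers fell in 2, 7 and 3 of 8. Markers of striatal projection neurons fell in 1, 8 and 8 of 9, and those of oligodendrocytes in 0, 6 and 1 of 6. Ppp1r1b, a phosphoprotein of projection neurons, was at 34775 to 38696 counts in Normal and 3919 to 23900 in the hemorrhage rats, in counts not scaled for depth. Each of the 8 members had a smaller log2 difference from Normal than the mean of the microglia and macrophage markers in all 3 groups. Psmb8 exceeded that mean in every IS rat, by 0.68 to 0.79. Its excess ran from -0.15 to 0.39 in IC and from -0.007 to 1.18 in IS-HA. For Psmb9 it was 0.20 to 0.36 in IS, -0.36 to 0.14 in IC and -0.47 to 0.83 in IS-HA. That mean takes in markers that did not pass, and the lowest of the 12 was at -0.38 in IS by edgeR. The edgeR medians of the 12 were 2.97, 3.77 and 3.53 (log2) in IC, IS and IS-HA. Psmb8 was at 3.06, 4.06 and 3.68 there, and Psmb9 at 3.00, 3.69 and 3.42. In bulk tissue, more cells of a type and more RNA per cell cannot be told apart, and the part of these cells in the members' levels was not tested.

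The gene whose pattern over the 9 hemorrhage rats came closest to each member was sought among 15037 other tested genes with a symbol, by the root mean square difference of the log2 CPM relative to Normal. The nearest were Fuca1, a lysosomal fucosidase, to Psme1 (0.201), Hexa, a lysosomal hexosaminidase, to Psme2 (0.0848), Ifitm3, an interferon-induced membrane protein, to Tap1 (0.158), and Arid5a, an RNA-binding protein, to Tap2 (0.119). For B2m it was Zc3hav1, an antiviral RNA-binding protein (0.173), for Nlrc5 the transporter Abcc3 (0.224), for Pdia3 the mitochondrial enzyme Idh2 (0.0924) and for Erap1 Ninl (0.124). The median over all genes was between 1.12 and 2.47 for these members. No member had Psmb8 or Psmb9 as its nearest gene. The measure takes in the size of the difference from Normal, and both references had larger estimates than any member. It therefore does not tell whether the members and the references varied together across the rats.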

How the data were processed

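Striatal poly(A) RNA of 11 rats (Normal 2, IC 3, IS 3, IS-HA 3) was sequenced by the authors. They deposited whole-number read counts per gene without normalization, and TPM, in which the authors divided counts by gene length and scaled each rat to a common sum. Per the labels, fastp 0.20.0, HISAT2 2.1.0, SAMtools 1.9 and featureCounts were used on mRatBN7.2. Groups came from the labels; they number the replicates without saying how these were processed, so p-values measure the spread between these libraries.

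Counts were filtered with filterByExpr, scaled by TMM and tested with the quasi-likelihood F test of edgeR 4.0.16 (R 4.3.3) with 1 model for all 4 groups, and p-values were adjusted by Benjamini-Hochberg over 15742 genes (threshold 0.05). Standard errors were taken as |log2 fold change| / sqrt(F), and confidence intervals are 95%. TPM ratios were tested by exact permutation in Python 3.11.15, two-sided, as log2. The smallest library held 6701301 counts, where the floor of 3 counts is 0.448 CPM; floors cover counting error only.

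The alternatives were DESeq2's size factors, library size alone, DESeq2 1.42.0, no filter, at least 10 counts in every rat, voom (limma 3.58.1), limma on log2(TPM + 1) and log2(TPM + 0.1), normalization without 18 hemoglobin and mitochondrial genes, only the groups compared, the replicate block and each rat left out. Adding Psme1-ps1 to Psme1 was chosen after seeing the data.

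The members and lists were chosen with earlier results of these data known. Named are the members, Psmb5 to Psmb9, the nearest gene of each member, and from each list the 4 genes with the largest absolute log2 fold change in IS against Normal. Genes named as markers at or near 0, and Ppp1r1b, were chosen after their values were seen. Promoters are from RefSeq, GRCr8, and were matched by symbol.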

Additional observations from a re-analysis of the deposited data

How the results depend on the processing

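All 8 log2 fold changes against Normal stayed above 0 under all 23 alternatives in IC, IS and IS-HA. The count of members called stayed 8 in IS, or 7 where Erap1 was lost (replicate block, limma on log2(TPM + 1), without Normal replicate 1). It was 8 in IC against 2 with the replicate block, and 1 to 8 with each rat left out (1 without Normal replicate 3, 5 without Normal replicate 1, 5 without IC replicate 3, 6 without IC replicate 4), and 4 to 8 in IS-HA. In IS against IC it was 0 against 1 by voom and 1 without IS-HA replicate 2, where 2241 genes were called in all. Library size alone shifted the median log2 fold change of all genes against Normal by 0.14, 0.13 and 0.13. With 1 Normal rat left, that rat was assumed to vary like the others.

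Signs turned for estimates near 0 that did not pass the test. With the replicate block, IS-HA against IS was 0.12 for Psme1 and 0.026 for Psme2, and IS-HA against IC was 0.067 for Tap1 and 0.18 for Nlrc5. By voom, IS-HA against IC was -0.090 for Psme1 and -0.030 for Psme2, and with only the groups compared Psme1 was 0.0014 in IS-HA against IS. Leaving out each rat gave ranges in IS against IC of -0.16 to 0.047 for Erap1 and -0.033 to 0.50 for B2m, in IS-HA against IS of -0.58 to 0.22 for Psme1 and -0.57 to 0.16 for Psme2, and in IS-HA against IC of -0.38 to 0.22 for Tap1, -0.27 to 0.37 for Nlrc5, -0.17 to 0.62 for Psme1 and -0.12 to 0.62 for Psme2. The cause was not tested.

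The ratios' log2 differences with each rat left out were 0.60 to 0.63 for Psme1 to Psme2, 0.28 to 1.01 for Tap1 to Tap2, 3.08 to 3.25 for Psmb8 to Psmb5 and 2.67 to 2.83 for Psmb9 to Psmb6; that of Psmb10 to Psmb7 was not run. The replicate numbers belong to different animals. The correlation of deviations from the group mean was -0.475 to 0.356 over 11 same-numbered pairs, 2 of them over 0.1. Its mean was -0.0750, against 0.0249 for other pairs. Deviations within groups of 2 or 3 rats are tied to each other, so these values cannot show whether same-numbered rats shared a batch. The block changed no other call of the members than those given. With 2 or 3 rats a group, the intervals between hemorrhage groups given with the results set what could be seen.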

Other observations

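Cd8a and Cd8b, the chains of the CD8 co-receptor that reads class I molecules, stood at 1 to 2 and 0 counts in the Normal rats and at 351 to 2213 and 69 to 326 counts in the 9 hemorrhage rats. The CD3 chains of the T cell receptor complex, Cd3e, Cd3d and Cd3g, held at most 20, 13 and 12 counts in any rat, and Cd3e was at 11 to 14 counts in Normal. The cytotoxic genes Gzmb, Prf1 and Nkg7 held at most 4, 7 and 8 counts. These genes were named after their values were seen, and the cells that hold the Cd8a transcripts were not tested.

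The homeostatic microglia markers Tmem119 and P2ry12 were at 415 to 623 and 529 to 758 counts in Normal and at 160 to 729 and 324 to 1590 in the hemorrhage rats, in counts not scaled for depth.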
